A study of Klebsormidium nitens with 6 samples.

Results

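The genes described here are those whose transcripts were lowered at least 4-fold in the filamentous streptophyte alga Klebsormidium nitens by 12-oxo-phytodienoic acid (OPDA). All groups were algae grown for a month on 0.5 Gamborg's B5 plates, from which discs were moved into liquid medium of the same strength and shaken at 120 rpm for 2 hours. The 3 mock libraries (replicates 1, 2 and 3) came from discs in medium alone, whose solvent content the labels do not give, and the 3 OPDA libraries (replicates 1, 2 and 4) from discs in medium with 25 µM OPDA. The labels name neither the algal strain nor separate cultures for the replicates, so the spread between libraries may be technical, and 1 dose and 1 time were sampled.

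Genes were chosen from the table of counts divided by size factors that the authors deposited, called normalized counts here. A gene was kept when its mock mean was at least 24 (about 1 CPM), the ratio of OPDA to mock means, with 1 added to each, was at most 0.25, and its highest OPDA value lay below its lowest mock value. This found 69 of 17152 genes, out of 11496 that reached the mock minimum. The choice used the comparison of OPDA with mock itself, so the sizes of the falls below are a description and carry no test.

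OPDA is an oxylipin that plants make in plastids from the fatty acid alpha-linolenic acid, and in vascular plants it is converted to jasmonate. Its cyclopentenone ring makes it a reactive electrophile that can bind thiol groups. Jasmonates act in vascular plants through the receptor COI1, and the series title places OPDA in responses that do not need COI1. The level of a transcript is set by its synthesis and its decay together, and a count table cannot separate them.

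The files give gene IDs only. All 69 IDs corresponded to a locus tag of the assembly ASM70883v1, and none had a symbol of its own there. No product is listed for them, so no role is given to any of these genes and the labelled alga could not be checked against marker genes. Library totals lay between 23693021 and 24169072 counts, and each of the 69 genes was read in every library, with at least 1 count. In 60 of them every OPDA library still held at least 10 counts, and in 3 no OPDA library reached 10.

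The 69 genes spanned a wide range of abundance, from a mock mean of 24.3 to 189418 normalized counts, with a median of 532 in mock and 79.0 in OPDA. Mock means were under 100 in 10 genes, 100 to 1000 in 39, 1000 to 10000 in 18 and above 10000 in 2. In OPDA, 15 had a mean under 24, the level that the choice required in mock. Normalized counts are not corrected for gene length, so an order by count is an order of reads. In a culture, fewer cells of a kind and less RNA per cell cannot be told apart.

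**Figure D1:**
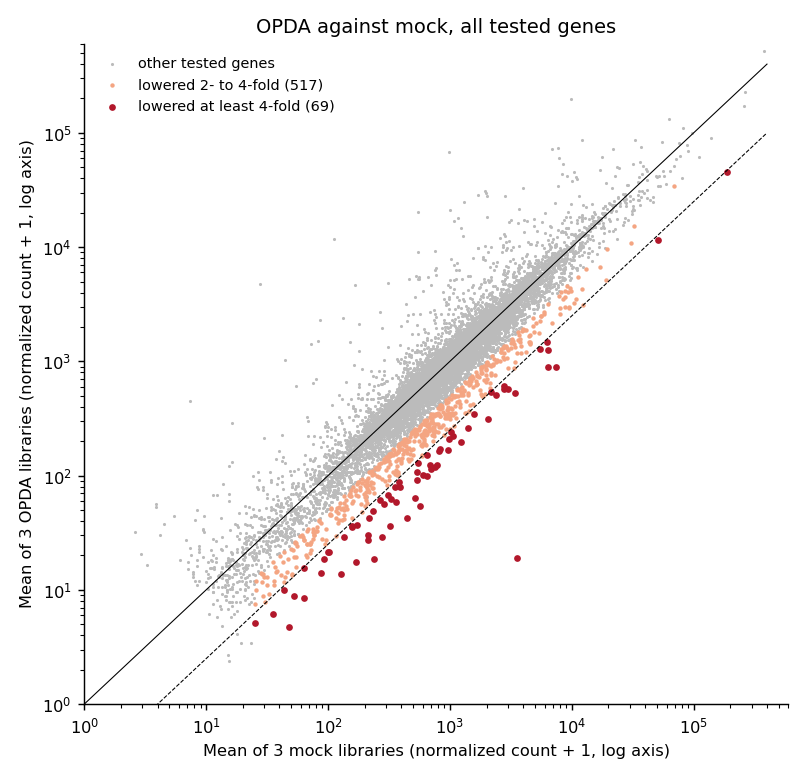
Each point is 1 of the tested genes, placed by its mean over the 3 mock libraries (horizontal, normalized count + 1, log axis) and over the 3 OPDA libraries (vertical, same scale); the solid line marks equal means and the dashed line a 4-fold lower OPDA mean. The 69 genes lie along the dashed line at all levels of abundance, and 1 of them, at a mock mean of 3557 and an OPDA mean of 17.9, stands far below the rest.

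Most of the falls were close to the limit. The median fall was 5.04-fold, and 31 genes lay between 4-fold and 5-fold, 14 between 5-fold and 6-fold, 13 between 6-fold and 8-fold and 10 between 8-fold and 16-fold. A single gene, kfl00033_0110_v1.1, went beyond 16-fold. In a fit across all genes with edgeR's quasi-likelihood test, all 69 were lower in OPDA at an adjusted p under 0.05, where 27.5% of the 11752 genes tested were called lower. Their median log2 fold change was -2.39 (range -7.63 to -2.02), against 0.0045 over all genes tested. Since the same contrast chose the genes, neither figure adds support. By edgeR, 76 genes were at least 4-fold lower, a list that held all 69 (100% of the genes chosen here and 90.8% of edgeR's list). Of the other 7, 5 had a mock mean under 24 and 2 had a ratio just over the limit. No gene met the limits of level and ratio but failed on overlap, while OPDA values lay below all mock values in 31.3% of tested genes.

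The space between the groups varied from gene to gene. The lowest mock value was at least 4 times the highest OPDA value in 39 genes, 3 to 4 times in 22, 2 to 3 times in 6 and less than 2 times in 2. Those 2 were among the least read, kfl00006_0090_v1.1 and kfl00549_0020_v1.1. The first had raw counts of 42, 22 and 11 in mock and 1, 5 and 6 with OPDA. The second had 79, 31 and 21 in mock and 11, 5 and 10 in OPDA. In both, the mock library with the fewest counts came close to the OPDA library with the most, and counts this low carry a large counting error.

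**Figure D2:**
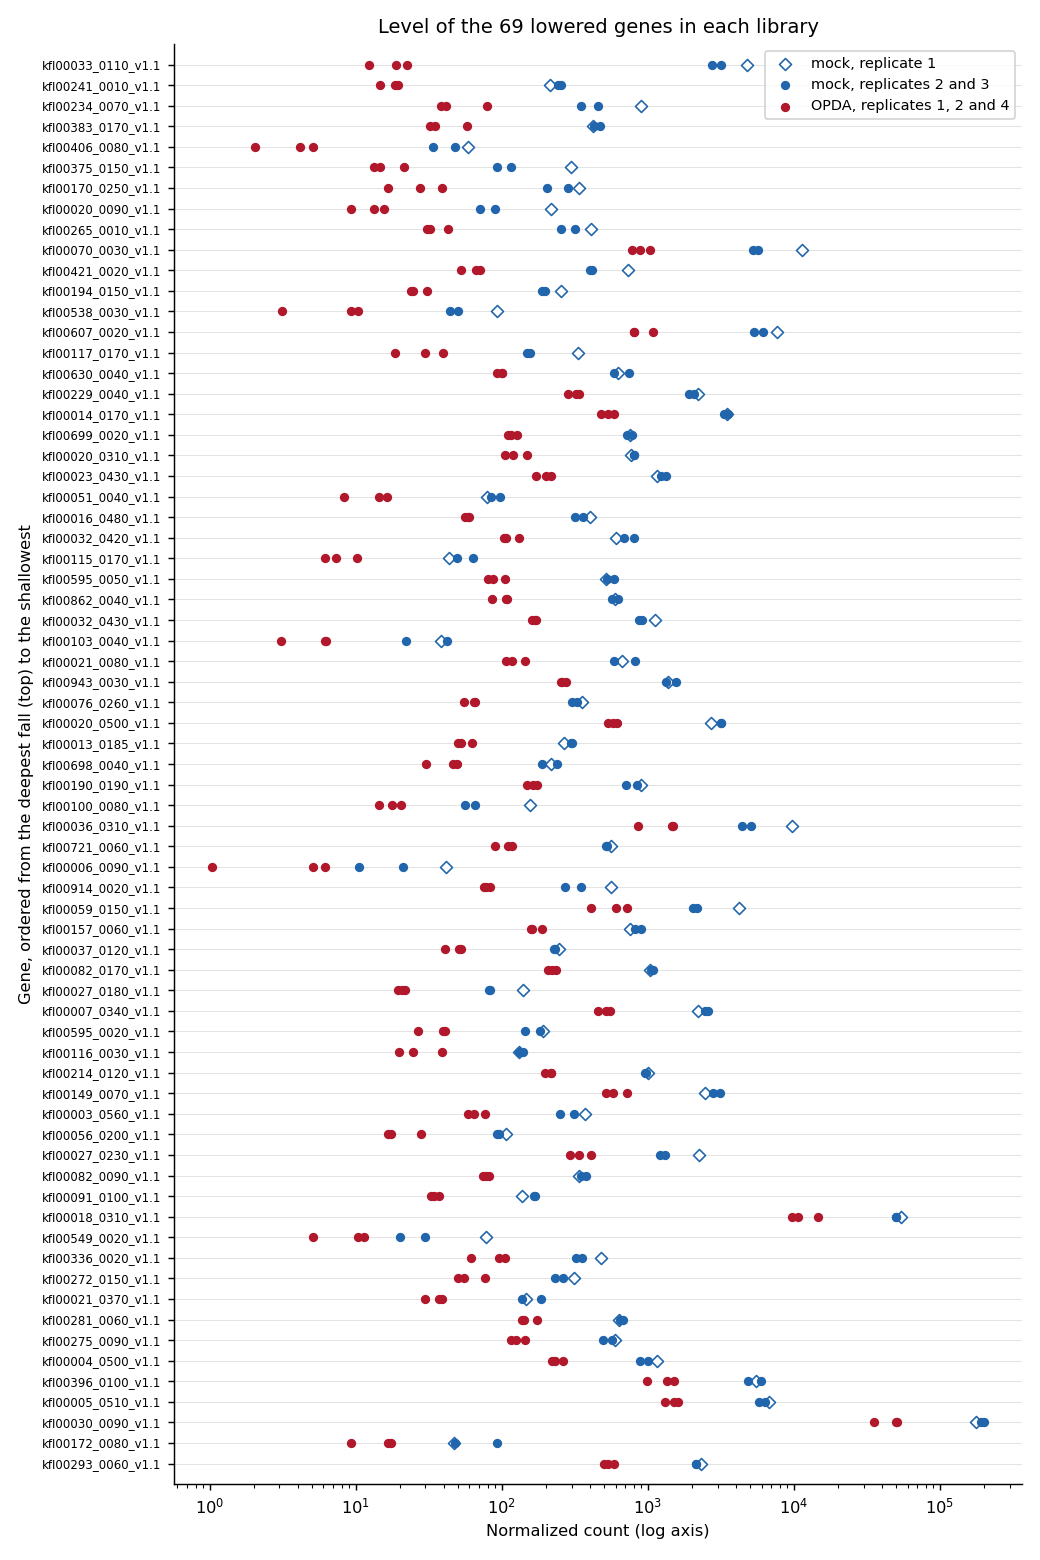
Every row is 1 of the 69 genes, ordered from the deepest fall at the top, and every symbol is the normalized count in 1 library (log axis); open diamonds are mock replicate 1, filled blue circles the other mock libraries and red circles the OPDA libraries. In each row all red symbols lie to the left of all blue ones, and in 16 rows the open diamond stands apart to the right of the filled blue circles.

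The deepest fall was that of kfl00033_0110_v1.1 (locus tag KFL_000330110). It had 4774, 3172 and 2725 normalized counts in mock replicates 1, 2 and 3 and 18.7, 22.5 and 12.3 in OPDA replicates 1, 2 and 4. The mean went from 3557 ± 1077 to 17.9 ± 5.16 (SD, n = 3 each), a 189-fold lower level with a log2 fold change of -7.63 ± 0.39 (SE). The lowest mock value was 121 times the highest OPDA value, a difference far larger than the spread in either group. The next deepest fall was 12.8-fold, in kfl00241_0010_v1.1 (KFL_002410010). That gene had 212, 242 and 254 in mock and 14.5, 19.5 and 18.5 in OPDA, close agreement within both groups.

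The other genes among the 8 deepest falls lay between 9.24-fold and 10.5-fold. In kfl00383_0170_v1.1 (KFL_003830170) the mock libraries agreed closely at 422, 473 and 430, and the OPDA libraries held 32.2, 34.8 and 57.6. In kfl00234_0070_v1.1 (KFL_002340070) they did not, with 897, 347 and 452 in mock and 41.6, 78.9 and 38.0 in OPDA. Mock replicate 1 was likewise the highest by far in kfl00375_0150_v1.1 (298, 92.0 and 116, falling to 14.5, 21.5 and 13.4) and in kfl00020_0090_v1.1 (216, 70.9 and 90.4, falling to 15.6, 9.22 and 13.4). Against mock replicates 2 and 3 alone, the fall of kfl00375_0150_v1.1 was 6.02-fold in place of 9.71-fold, and that of kfl00020_0090_v1.1 was 5.95-fold in place of 9.24-fold. In kfl00170_0250_v1.1 the mock libraries held 339.9, 202 and 286 and the OPDA libraries 16.6, 27.7 and 39.1. The last of the 8, kfl00406_0080_v1.1, was scarce throughout, with raw counts of 60, 35 and 50 in mock and 4, 5 and 2 in OPDA. In all of these the groups stayed apart by at least 4.28 times.

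At the other end of abundance, kfl00030_0090_v1.1 (KFL_000300090) was the gene with the 4th highest mock mean of all genes in the table, and it ranked 38th in OPDA. It had 176778, 191906 and 199570 normalized counts in mock and 50455, 50290.1 and 35556 in OPDA, a mean of 189418 ± 11598 against 45433 ± 8555 (SD, n = 3 each). Its fall of 4.17-fold was the third smallest of the 69, and OPDA replicate 4 lay well under the other two OPDA libraries. The gene kfl00018_0310_v1.1 (KFL_000180310) ranked 25th in mock and 276th in OPDA. It had 53625, 49861 and 49971 in mock and 14645, 10582 and 9673 in OPDA, where replicate 1 was the highest.

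These genes decided how much of each library the whole group took. The 69 genes held 1.37%, 1.35% and 1.39% of all counts in mock replicates 1, 2 and 3, and 0.319%, 0.306% and 0.239% in OPDA replicates 1, 2 and 4. Of the counts they held in mock, 59.5% belonged to kfl00030_0090_v1.1 and 75.5% to that gene and kfl00018_0310_v1.1 together. For the other 67 the mock share was 0.335% ± 0.046 and the OPDA share 0.0562% ± 0.0027 (SD, n = 3 per group). The mock libraries were closer to each other over all 69 genes than over these 67, where replicate 1 reached 0.388% and replicates 2 and 3 lay at 0.308% and 0.309%.

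**Figure D3:**
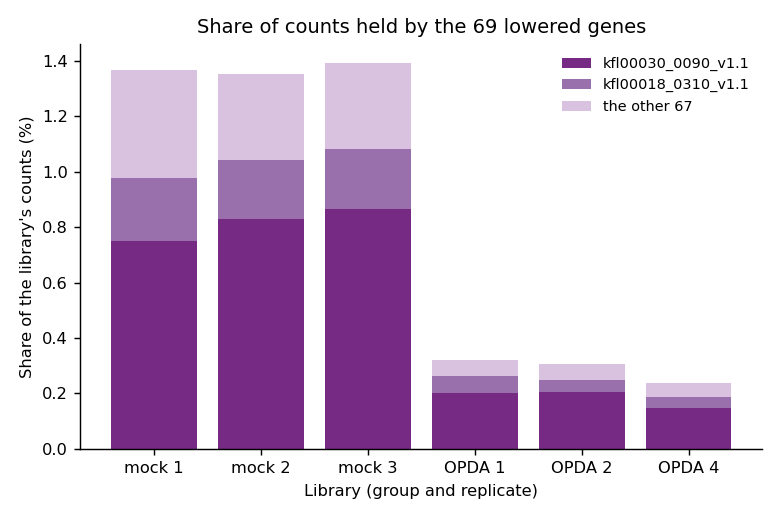
Bars show the percentage of each library's counts held by the 69 genes, split into kfl00030_0090_v1.1, kfl00018_0310_v1.1 and the other 67. The mock bars reach 1.35% to 1.39% and the OPDA bars 0.239% to 0.319%, and the darkest segment makes up most of each bar.

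The remaining genes with most reads in mock differed in how well their mock libraries agreed. In kfl00607_0020_v1.1 (KFL_006070020) the mock libraries held 7627, 6091 and 5353.5 normalized counts and the OPDA libraries 1077, 798 and 806, a 7.11-fold fall. In kfl00005_0510_v1.1 (KFL_000050510) they held 6698, 5732 and 6325 in mock and 1512, 1612 and 1314 with OPDA, a 4.22-fold fall. The gene kfl00396_0100_v1.1 was at 5471, 4859 and 5982 without OPDA and at 1357, 1502 and 989.85 with it. In these 3 genes no mock library stood far from the others, and OPDA replicate 4 was the lowest of its group in the last 2 of them. By contrast, kfl00070_0030_v1.1 (KFL_000700030) had 11426 in mock replicate 1 and 5259 and 5712 in the other two, with 1036, 876 and 775 in OPDA. Likewise, kfl00036_0310_v1.1 (KFL_000360310) had 9622 in mock replicate 1 and 5055 and 4375 in the others, with 1465, 1487 and 851 in OPDA. OPDA replicate 4 was again the lowest of its group in both.

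The mock libraries agreed best in kfl00214_0120_v1.1, kfl00014_0170_v1.1 and kfl00082_0170_v1.1. The first had 1000.01, 962 and 969 in mock and 196, 217 and 217 with OPDA. The second had 3462, 3337 and 3507 in mock and 531, 477 and 585 with OPDA. The third had 1029, 1048 and 1089 in mock and 207, 236 and 221 in OPDA. Their SD of log2 values between mock libraries was 0.030 to 0.042, and their falls were 4.63-fold, 6.46-fold and 4.75-fold. Their falls of at least 4-fold follow from the choice, and in these genes the mock replicates were nearly equal.

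The values next to the limits describe how the group was cut. Just inside the ratio of 0.25 were kfl00030_0090_v1.1 at 0.240, kfl00172_0080_v1.1 at 0.243 and kfl00293_0060_v1.1 at 0.247. Just outside it were kfl00090_0050_v1.1, kfl00018_0050_v1.1 and kfl00024_0070_v1.1, at 0.252, 0.252 and 0.253. There was no gap in the ratios at the limit. Just above the mock minimum of 24 were kfl00006_0090_v1.1 at 24.3, kfl00103_0040_v1.1 at 34.2 and kfl00549_0020_v1.1 at 42.5. Just under it were kfl00674_0040_v1.1 at 22.6, kfl00107_0100_v1.1 at 18.4 and kfl00026_0230_v1.1 at 16.8, out of 12 genes that met the other criteria with a lower mock mean.

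Mock replicate 1 stood above the other mock libraries in part of the group. In 16 genes (23.2%), mock replicate 1 was at least 1.5 times the mean of mock replicates 2 and 3, and in none was it lower by that factor. In the other 53, the ratio lay between 0.677 and 1.43. Among all 11496 tested genes with a mock mean of at least 24, mock replicate 1 was this high in 1.66% and this low in 0.957%. Among the 517 genes lowered 2-fold to 4-fold under the same criteria it was high in 46 (8.90%) and low in 10 (1.93%). Among the 101 genes raised at least 4-fold it was high in 7 (6.93%) and low in 15 (14.9%). The factor of 1.5 was picked with the values in view. A ratio of at least 2 was met by 10 of the 69 genes (14.5%) and by 0.444% of tested genes, and these shares carry no test.

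A high value in mock replicate 1 raises the mock mean and so helps a gene into the group. The 5 libraries other than mock replicate 1, taken alone, gave 63 genes, and in this list mock replicate 1 played no part in the choice. It was still at least 1.5 times the mean of the other mock libraries in 8 of the 63 (12.7%) and low by that factor in 1. On the second principal component of log2 CPM, which held 5.43% of the variance against 84.5% on the first, mock replicate 1 lay at 16.1 and the other libraries between -9.75 and 3.80. Its median ratio to the mean of the other mock libraries was 1.003 over the tested genes with that mock minimum, a value that size factors bring close to 1. What set this library apart was not tested.

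The 16 genes covered a wide range of abundance. Their mock means ran from 24.3 to 7466, with a median of 302, against 551 in the other 53. They made up 8 of the 15 genes with an OPDA mean under 24. They included 6 of the 11 genes lowered at least 8-fold, among them kfl00033_0110_v1.1 and kfl00070_0030_v1.1. A high mock replicate 1 itself deepens the fall. Against mock replicates 2 and 3 alone, kfl00033_0110_v1.1 was 156-fold lower and the other genes of these 6 were 5.95-fold to 7.44-fold lower. In the 16 genes the OPDA libraries, which the mock ratio does not use, also agreed less. The median SD of log2 values between OPDA libraries was 0.39, against 0.20 in the other 53 and 0.091 in all tested genes with that mock minimum. Low counts raise the spread of log2 values, and their part in this difference was not tested. Between mock libraries the median SD was 0.61 in the 16 genes, which their choice sets, and 0.13 in the other 53. Against mock replicates 2 and 3 alone, the 16 genes were lower by 2.61-fold to 156-fold, with a median of 4.47-fold, and 8 of them were still lower by at least 4-fold. The other 8 lay under 4-fold without that library. That all 16 were lower follows from the choice, which required separate groups. In the edgeR fit without mock replicate 1, all 69 genes were called lower, where 26.1% of the genes tested in that fit were. This too follows largely from the choice, which had used the remaining libraries.

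**Figure D4:**
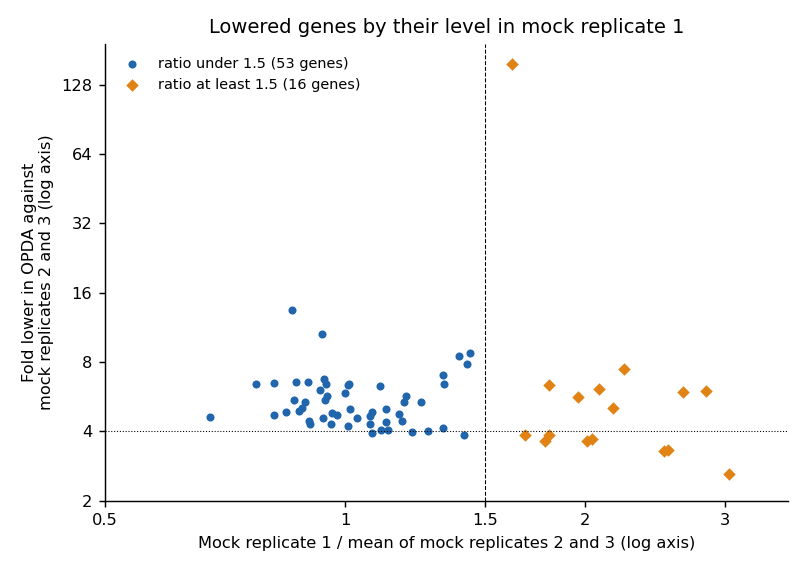
Each point is 1 of the 69 genes, placed by the ratio of mock replicate 1 to the mean of mock replicates 2 and 3 (horizontal, log axis) and by its fall in OPDA against mock replicates 2 and 3 only (vertical, log axis); the dashed line marks a ratio of 1.5 and the dotted line a 4-fold fall. The 16 orange diamonds lie at ratios of 1.62 to 3.03, 8 of them under the dotted line, and the lowest is at 2.61-fold.

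Leaving out each library in turn showed which genes depended on 1 library. Of the 69 genes, 54 met the criteria whichever library was left out. Without mock replicate 1, 11 genes left, 8 of them from the 16 described above, and 5 others entered. Without any other library, 1 to 3 genes left and 4 to 20 entered, the most (20) without OPDA replicate 2. The most read of those that left were kfl00030_0090_v1.1 and kfl00396_0100_v1.1 without OPDA replicate 4, kfl00036_0310_v1.1 and kfl00059_0150_v1.1 without mock replicate 1, and kfl00293_0060_v1.1 without mock replicate 1 or OPDA replicate 2. In kfl00059_0150_v1.1 the mock libraries held 4217, 2158 and 2037 and the OPDA libraries 405, 603 and 717. The scarce gene kfl00172_0080_v1.1 left without mock replicate 3, which held 92.3 against 47.2 and 47.9 in the other mock libraries. It also left without OPDA replicate 2, which held 9.22 against 16.6 and 17.5 in the other OPDA libraries. The edgeR call of kfl00549_0020_v1.1 was lost without OPDA replicate 2 (adjusted p = 0.0538, log2 fold change -1.95).

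The library left out served as a measure that the choice had not used. In the lists made from 5 libraries, the left-out value fell on its own group's side of all values of the other group in every gene but 1 of 78 without mock replicate 2 and 1 of 86 without OPDA replicate 2. The lists were chosen for separate groups and a 4-fold ratio in 5 libraries, which makes a left-out value likely to fall on its side. Over all tested genes, all OPDA values lay below all mock values in 31.3%. That share involved no such choice, so it is no baseline for the left-out values, and their counts carry no test. The lists shared 58 to 68 genes with the 69. A left-out library may not be an independent replicate, since the labels name no separate cultures. The left-out library taken alone gave a ratio of at most 0.25 in 68.6% to 87.3% of each list. The medians of these ratios corresponded to falls of 4.79-fold to 5.30-fold. In each ratio the opposite group's libraries were still those used for the choice.

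The 69 genes were spread over 62 scaffolds of the assembly, 5 of which held 2 of them and 1 of which held 3. A single pair lay side by side, kfl00032_0420_v1.1 and kfl00032_0430_v1.1 (KFL_000320420 and KFL_000320430). The first had 607, 686 and 804 in mock and 104, 108 and 131 with OPDA. The second had 1113, 870.5 and 917 in mock and 167, 170.1 and 160.4 with OPDA. The gene on the far side of the first, kfl00032_0410_v1.1, was also lower in OPDA, at 419, 463 and 545 in mock and 141, 149 and 126 in OPDA (log2 fold change -1.78, edgeR adjusted p = 9.10e-08). The 3 adjacent genes thus all fell by more than the spread in either group, 2 of them by choice. On the far side of the second, kfl00032_0440_v1.1 was lower as well (log2 fold change -0.50, edgeR adjusted p = 4.21e-05). Its model overlaps that of kfl00032_0430_v1.1 in the gene table. The use of strand is not stated, so reads of the overlapping stretch cannot be assigned to either gene with certainty.

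Most neighbours were not called lower. Of 131 flanking genes outside the group, 100 had enough counts to be tested, and 35 of these were lower in OPDA, 24 higher and 41 not past the threshold. Over all tested genes 27.5% were called lower and 26.5% higher. At least 2-fold lower were 12 of the 100 neighbours and at least 2-fold higher 4, against 5.20% and 3.51% of all tested genes. The median log2 fold change of the 100 neighbours was -0.13. The choice of members sets their distance from the group's own values. In 6 genes, among them the abundant kfl00030_0090_v1.1, kfl00018_0310_v1.1 and kfl00036_0310_v1.1, both neighbours had too few counts to be tested.

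**Figure D5:**
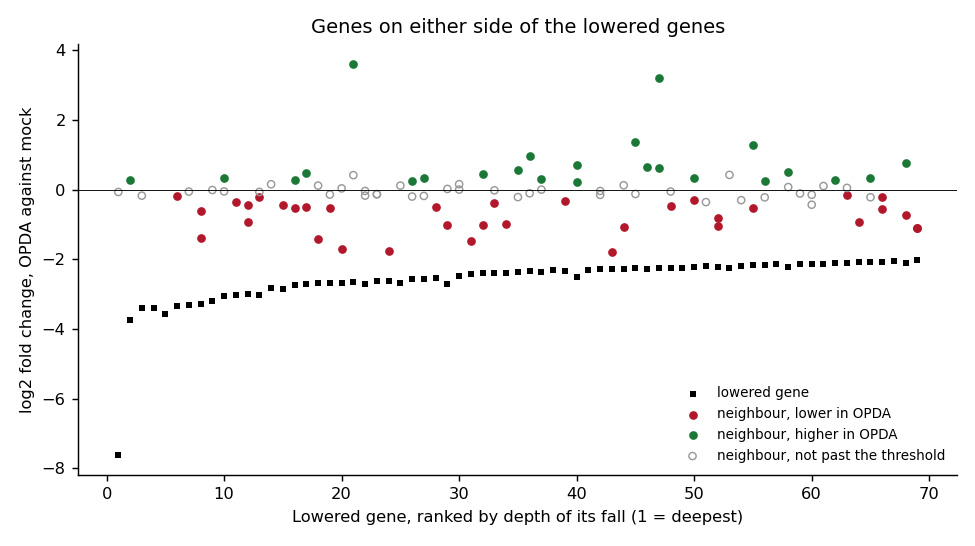
The 69 genes are ranked along the horizontal axis by the depth of their fall, with their own log2 fold change as black squares and that of the tested genes on either side that are outside the group as circles (red, lower in OPDA; green, higher; open grey, not past an edgeR adjusted p of 0.05). The circles scatter around 0 between -1.80 and 3.62.

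In a few places a lowered gene lay beside one that rose at least 2-fold. The gene kfl00023_0430_v1.1 (KFL_000230430) went from 1156, 1340.2 and 1235 in mock to 199.5, 172 and 218 in OPDA. Its neighbour kfl00023_0420_v1.1, whose model overlaps it in the gene table, went from 597, 784 and 871 in mock to 8638, 8875 and 10105 in OPDA (log2 fold change 3.62, edgeR adjusted p = 3.80e-08). The 2 genes moved in opposite directions without overlap of groups. Whether the counting used strand is not stated, so reads of the overlapping stretch cannot be assigned to either gene with certainty. Beside kfl00007_0340_v1.1, which fell 4.72-fold, the scarce kfl00007_0335_v1.1 rose from 0, 4.79 and 8.65 to 31.2, 42.0 and 55.5 (log2 fold change 3.22, edgeR adjusted p = 0.000365). Smaller rises stood beside the 2 genes of scaffold 82: kfl00082_0100_v1.1 next to kfl00082_0090_v1.1 (log2 fold change 1.29, edgeR adjusted p = 8.76e-09) and kfl00082_0180_v1.1 next to kfl00082_0170_v1.1 (1.38, edgeR adjusted p = 1.40e-08). These pairs were picked with their values in view. In all, 4 of the 69 genes had a neighbour whose model overlaps theirs in the table.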

How the data were processed

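Raw read counts per gene in 6 libraries, and a table of the same counts divided by 1 size factor per library (a normalized signal), were deposited by the authors. The submitters' processing notes list Trim Galore, HISAT2, HTSeq and DESeq2 without versions. Genome build, counting mode and strandedness: not given in the sources used here. Multiplied by the size factor, 100% of the values in the deposited table were whole within 1e-06 and equalled the raw counts. The genes were chosen from that table as described, and all other values printed as normalized counts come from it.

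Fold changes with SE, and all calls, come from edgeR 4.0.16 (quasi-likelihood F test, TMM factors, robust, filterByExpr with a minimum count of 10, Benjamini-Hochberg adjustment over 11752 genes, R 4.3.3) on the raw counts, after a check on simulated data. The SE is the size of the log2 fold change over the root of F. Counting error is part of the count model that edgeR fits, beside a term for the spread between libraries. Groups and replicate numbers came from the sample titles. Neighbours were taken from the gene table of ASM70883v1, which holds 16048 of the 17153 IDs by locus tag. No coordinates are given, because the build used for counting is unknown here. The genes and settings were chosen with earlier results of these data known. Named genes were those with the 8 highest mock means, the 8 deepest falls, the values next to each limit, adjacent pairs, the extremes of mock spread, and up to 5 that left the group without 1 library. Genes named as neighbours were added later. Alternatives were other scalings, DESeq2 1.42.0, limma-voom (limma 3.58.1), other filters, limits and added constants, the replicate block and leaving out each library. Lists by product description and descriptions of sequences were not made.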

Additional observations from a re-analysis of the deposited data

How the results depend on the processing

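The number of genes meeting the criteria stayed between 47 (a mock minimum of 240) and 83 (total-count CPM) with TMM CPM, total-count CPM, 0 or 10 added, a mock minimum of 240 or none, or overlap allowed, and was 63 to 86 with 1 library left out. A limit of 8-fold gave 11 genes and of 2-fold gave 586, by construction. All 69 genes were called lower under every alternative that tested them, except without OPDA replicate 2 (68) and with the replicate block (67). These calls came from edgeR, or from DESeq2 or limma-voom where that was the alternative. With the block, kfl00234_0070_v1.1 had a log2 fold change of -3.23 and an edgeR adjusted p of 0.0877. The values of kfl00059_0150_v1.1 were -2.59 and 0.0728. The filter of at least 10 CPM in 3 libraries tested and called 45. The median log2 fold change of the group was -2.47 with total-count scaling, -2.53 with the replicate block and -2.50 to -2.34 with 1 library left out. Without its most read gene the group held 0.555% of counts in mock and 0.103% in OPDA. With 1 library left out its share was 1.36% to 1.38% in mock and 0.272% to 0.313% in OPDA. Both groups have replicates 1 and 2. The deviations from the group mean of libraries sharing a number had correlations of 0.0777 and -0.0634, so pairing is not shown. The replicate block left 2364 genes higher and 2659 lower, against 3115 and 3233 without it. With the block, mock replicate 3 and OPDA replicate 4 had no partner and added nothing to the contrast. That fit in effect compared replicates 1 and 2 of each group only, so the lost calls cannot be put down to the block alone. The whole reads recovered from the normalized table, an alternative added after the data were seen, gave 3118 higher and 3232 lower. Total-count scaling gave 2232 higher and 4027 lower. Of 381 values of 26 named genes of the group under alternatives, 378 kept their call and none changed sign. Low counts limit the scarcest genes most.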

Other observations

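Outside the group, 175 tested genes with a mock mean of at least 24 also had mock replicate 1 at least 1.5 times the mean of the other mock libraries. In the edgeR fit without that library, 61 of them (34.9%) were lower in OPDA and 50 (28.6%) higher at an adjusted p under 0.05, where 26.1% of all 11794 genes tested in that fit were lower and 24.8% higher. Their median log2 fold change was -0.08. Genes low in mock replicate 1 by the same factor numbered 110, of which 28 were lower and 29 higher. These shares are a description of the libraries, and the link to the group of 69 was not tested.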
